A study of Mus musculus with 10 samples.

Results

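The 10 enzymes described here make bile acids from cholesterol and link them to amino acids. They were taken by gene symbol from the deposited count table, in which each symbol occurred once, and all 10 of the 10 (Cyp7a1, Cyp7b1, Cyp8b1, Cyp27a1, Hsd3b7, Akr1d1, Amacr, Acox2, Baat and Slc27a5) passed the filter on low counts. The table listed 55421 gene identifiers, of which 22449 were tested. RNA-seq was performed on whole livers of 10 male mice that had been injected at 6 months of age and were sampled 3 weeks later. The H3.3 KO group held 4 H3f3afl/fl H3f3bfl/fl C57BL/6 mice given AAV8 Tbg-Cre, so that both genes for the histone variant H3.3 were cut by Cre recombinase. The WT Cre controls were 3 wildtype mice given the same AAV8 Tbg-Cre virus, and the MCS controls were 3 H3f3afl/fl H3f3bfl/fl mice given AAV8 Tbg-MCS, a vector without Cre. AAV8, an adeno-associated virus, infects liver cells, and Tbg is a promoter active in hepatocytes, so the deletion concerns hepatocytes while the RNA came from all cells of the liver. In the labels, HIRA fl/fl is entered as the genotype of every floxed animal although their titles give the H3f3a and H3f3b alleles, and the groups here follow the titles.

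Hepatocytes are the site of bile acid synthesis. In the classical pathway Cyp7a1 starts the conversion of cholesterol and Cyp8b1 adds the hydroxyl group that makes cholic acid, while in the alternative pathway Cyp27a1 oxidises the side chain and Cyp7b1 hydroxylates the ring of oxysterols. Hsd3b7 and Akr1d1 then modify the ring, and Amacr and Acox2 prepare the side chain for shortening in peroxisomes. Slc27a5 activates free bile acids, and Baat conjugates activated bile acids, in mice chiefly to taurine. Bile acids returning to the liver restrain synthesis through the receptor FXR (Nr1h4) and the corepressor SHP (Nr0b2), with HNF4A and LRH-1 (Nr5a2) acting on the promoters.

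Total counts ran from 14998426 in KO 1 to 26096141 in MCS 1. H3f3a stood at 59.9 to 63.7 CPM (counts scaled to a common library size, after TMM normalization) in the controls and at 16.0 to 19.0 CPM in KO, and H3f3b at 136 to 204 CPM in the controls and at 39.8 to 56.7 CPM in KO, so neither gene's groups overlapped. The columns of the tables were tied to the kind of control only by the number in the library names. Every value for WT Cre or MCS alone rests on that, and the comparison of KO with the 6 controls does not. In bulk liver, fewer cells of a type and less RNA per cell cannot be told apart. The 11 measured hepatocyte markers summed to 100846 to 114905 CPM in KO and to 120186 to 174138 CPM in the controls, without overlap. Of them, 5 were lower and 1 was higher. Most of each sum was albumin, with a mean of 69200 CPM in KO and 96921 CPM in the controls. The 2 kinds of control did not overlap either (120186 to 135114 CPM in WT Cre, 146957 to 174138 CPM in MCS). The 12 macrophage markers summed to 664 to 1440 CPM in KO against 285 to 542 CPM, and 12 of 12 were higher. The 12 stellate cell and fibroblast markers summed to 509 to 819 CPM against 222 to 286 CPM, with 11 higher and 0 lower, and the 12 lymphocyte markers to 22 to 59.1 CPM against 11.2 to 18 CPM, with 8 higher and 0 lower. Cholangiocyte markers had 3 of 11 higher and 0 lower (146 to 162 CPM against 129 to 158 CPM), and endothelial markers 3 of 12 higher and 0 lower (336 to 579 CPM against 304 to 380 CPM). Lower and higher here mean an adjusted p under 0.05 against the 6 controls in edgeR's quasi-likelihood test. Over all tested genes 16.6% were lower and 19.7% were higher at that threshold. The part of the marker shifts in the results that follow was not tested.

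Transcripts of the conjugation enzymes Slc27a5 and Baat and of Cyp27a1 were lower in H3.3 KO livers. RNA levels do not show enzyme activity or amounts of bile acids. For plasma, the study reported no significant change of bile acids in H3.3 KO mice. Between KO and the 6 controls, 5 of the 10 enzymes fell (Slc27a5, Baat, Hsd3b7, Cyp27a1 and Amacr), 0 rose, and 5 did not pass an adjusted p under 0.05 in edgeR's quasi-likelihood test (Cyp7a1, Cyp7b1, Cyp8b1, Akr1d1 and Acox2). Over all tested genes 16.6% fell and 19.7% rose at the same threshold. DEGs in edgeR, which also had an absolute log2 fold change over 1, were 3 of the 10 (Slc27a5, Baat and Hsd3b7). Over all genes 5.79% were DEGs lower in KO. The study used the same thresholds with DESeq2. With DESeq2, Cyp7a1 (-1.85, adjusted p = 0.019) and Cyp7b1 (1.11, adjusted p = 0.0165) passed both thresholds as well, the former lower and the latter higher. In 4 enzymes (Slc27a5, Baat, Hsd3b7 and Cyp27a1) each KO liver lay below each control liver, as it did in 12.0% of all genes. The median log2 fold change was -0.64 over the 10 enzymes and -0.003 over all tested genes. Scaling by library size alone moved the median of all genes to 0.172 and the calls over all genes from 3726 lower and 4429 higher to 2172 lower and 5635 higher, and the 5 enzymes that fell were again 5 in number.

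**Figure D1:**
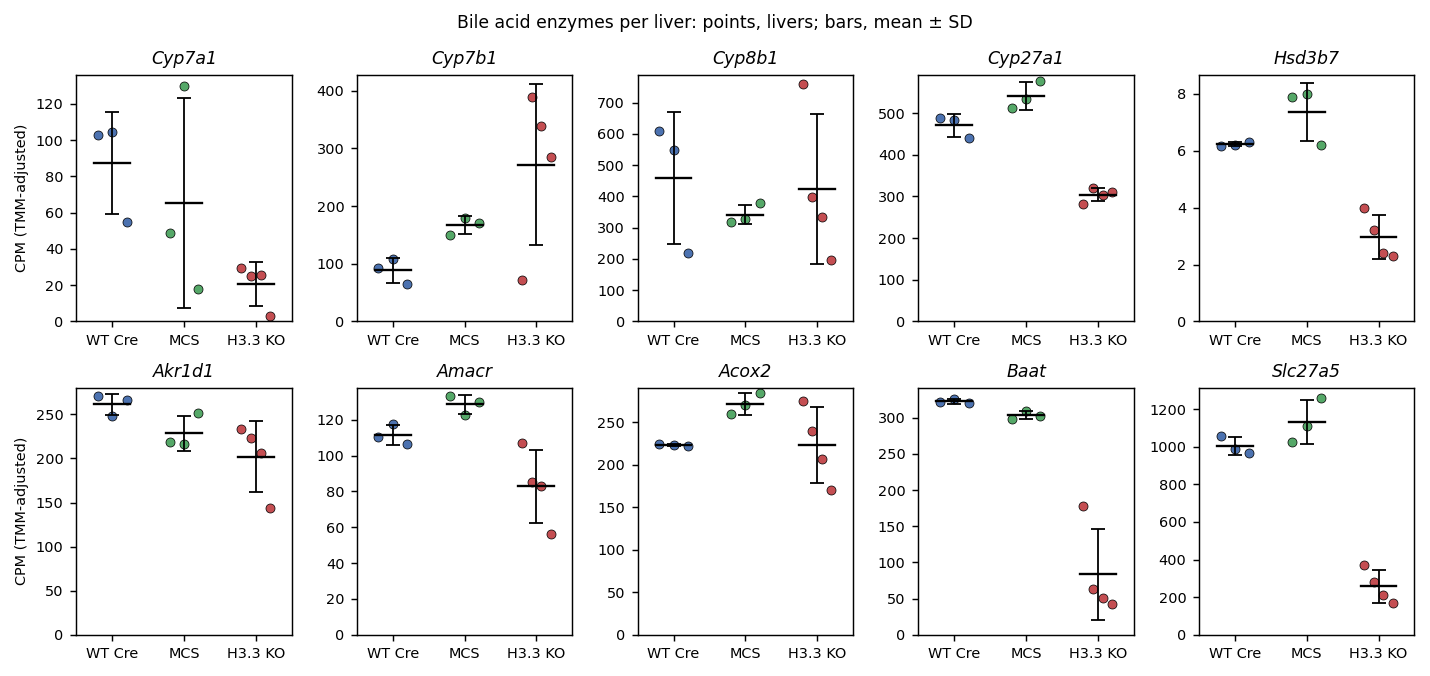
Expression of the 10 enzymes in each liver, as CPM on linear axes that start at 0, in WT Cre (3 livers), MCS (3) and H3.3 KO (4). Points are livers and bars give the mean ± SD; the 4 KO livers lie below all 6 controls for Cyp27a1, Hsd3b7, Baat and Slc27a5.

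Promoter sequences from RefSeq (mouse build GRCm38.p6) matched 5 of the 10 enzymes, and the 250 bases before the start are shown for 4 of them, because they place enzymes that fell (Cyp27a1 and Hsd3b7) beside enzymes that did not pass (Cyp8b1 and Akr1d1). Cyp7a1, Cyp7b1, Amacr, Baat and Slc27a5 had no entry. Capitals mark matches, on either strand, to 6 motifs that were searched by their letters, where N is any base. These were TCAAGGTCA (LRH-1), CAAAGTCCA (HNF4), AGGTCA (nuclear receptor half-site, which TCAAGGTCA contains) and TTCNNNGAA (STAT5). The others were TTATGNAA (D-box-like, looser than the D-box itself) and TATAAA (the core promoter element of that name).
Cyp27a1: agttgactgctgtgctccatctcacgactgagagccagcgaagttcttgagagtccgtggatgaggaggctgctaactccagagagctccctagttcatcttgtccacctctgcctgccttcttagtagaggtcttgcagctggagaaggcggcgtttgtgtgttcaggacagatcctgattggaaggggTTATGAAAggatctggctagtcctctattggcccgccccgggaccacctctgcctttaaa
Hsd3b7: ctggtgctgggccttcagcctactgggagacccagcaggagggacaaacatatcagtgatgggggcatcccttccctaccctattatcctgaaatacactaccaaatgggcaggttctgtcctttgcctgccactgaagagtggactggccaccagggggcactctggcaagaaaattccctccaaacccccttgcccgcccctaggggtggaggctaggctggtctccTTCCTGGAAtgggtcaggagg
Cyp8b1: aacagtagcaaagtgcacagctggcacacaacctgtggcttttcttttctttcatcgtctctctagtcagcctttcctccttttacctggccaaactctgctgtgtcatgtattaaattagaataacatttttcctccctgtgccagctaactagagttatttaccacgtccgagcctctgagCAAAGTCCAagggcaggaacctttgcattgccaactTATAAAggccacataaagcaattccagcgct
Akr1d1: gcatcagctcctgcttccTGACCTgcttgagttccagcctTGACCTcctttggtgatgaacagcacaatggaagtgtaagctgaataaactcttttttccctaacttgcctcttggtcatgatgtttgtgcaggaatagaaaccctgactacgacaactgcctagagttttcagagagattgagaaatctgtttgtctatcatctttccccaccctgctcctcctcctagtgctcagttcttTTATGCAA
Positions count back from the RefSeq start, which lies 39 bases before the GENCODE gene start in Cyp27a1, 5 bases after it in Hsd3b7 and at the same base in Cyp8b1 and Akr1d1. The Cyp27a1 window (chr1:74713285-74713534, plus strand) held 1 match to TTATGNAA, 60 to 53 bases before the start, a motif found in 3.07% of the 32851 promoter windows of this length. The Hsd3b7 window (chr7:127800359-127800608, plus strand) held 1 match to TTCNNNGAA at 21 to 13 bases before the start, and 7.02% of windows held that motif. The Cyp8b1 window (chr9:121916306-121916555, minus strand) held CAAAGTCCA at 67 to 59 bases and TATAAA at 31 to 26 bases before the start, present in 0.384% and 12.4% of windows. The Akr1d1 window (chr6:37529923-37530172, plus strand) held 2 matches to AGGTCA on the other strand, at 232 to 227 and 210 to 205 bases, and TTATGNAA at 8 to 1 bases before the start, while 14% of windows held AGGTCA. Neither entry for Acox2 held any of the 6 motifs, and TCAAGGTCA, present in 0.387% of windows, was in none of the windows of the 5 enzymes. A match is a run of letters and was not tested as a binding site.

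Cyp7a1, the rate-limiting enzyme of the classical pathway (ENSMUSG00000028240.2, mm10 chr4:6265612-6275633), varied widely. It measured 103, 105 and 55.1 CPM in WT Cre and 48.7, 129.8 and 17.7 CPM in MCS, against 29.3, 25.3, 25.7 and 2.87 CPM in KO. KO 4 stood far below the other KO livers, and MCS 3 lay below KO 1 to KO 3, so the groups overlapped. The log2 fold change was -1.88 (SE 0.721) with an adjusted p of 0.0718 (edgeR), which did not pass. It passed with DESeq2 (-1.85, adjusted p = 0.019), with edgeR's stricter filter filterByExpr (-1.86, adjusted p = 0.0415) and without MCS 3 (-2.09, adjusted p = 0.0326). Across the 18 alternatives the value stayed negative, from -2.09 to -1.31, with adjusted p between 0.019 and 0.133.

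Cyp8b1, the sterol 12-alpha-hydroxylase that sets the share of cholic acid (ENSMUSG00000050445.4, chr9:121914356-121916305), measured 608, 550.0 and 218 CPM in WT Cre and 319, 329 and 378 CPM in MCS. KO livers measured 761, 397, 335 and 198 CPM. The KO livers therefore spanned the whole range of the controls, with KO 1 above and KO 4 below all of them. The log2 fold change of 0.08 (SE 0.38, adjusted p = 0.895 in edgeR) was smaller than its error, and its sign turned without KO 1 (-0.37) and without WT Cre 3 (-0.04). The ratio of Cyp8b1 to Cyp7a1 CPM, a value with no test, was 26.0, 15.7, 13 and 69.0 in KO and 2.53 to 21.3 (median 5.59) in the controls, where the highest, MCS 3, overlapped KO.

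Cyp27a1, the mitochondrial sterol 27-hydroxylase (ENSMUSG00000026170.6, chr1:74713574-74737892), fell in all KO livers to a similar level. It measured 489, 482 and 439.7 CPM in WT Cre, 513, 533 and 578 CPM in MCS, and 283, 321, 302 and 311 CPM in KO. The highest KO liver lay well below the lowest control, and the KO livers ran only from 55.9% to 63.4% of the control mean. Its log2 fold change came to -0.73 (SE 0.105, adjusted p = 0.000185 in edgeR). The call held in all 18 alternatives, with values from -0.762 to -0.485.

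Cyp7b1, the oxysterol 7-alpha-hydroxylase (ENSMUSG00000039519.6, chr3:18071950-18243338), had the largest positive value of the 10. It measured 92.3, 108 and 65.8 CPM in WT Cre and 149.7, 180.2 and 171 CPM in MCS, against 72.5, 389, 339 and 286 CPM in KO. KO 2, KO 3 and KO 4 lay above all controls, whereas KO 1 lay among the WT Cre livers and below the MCS livers. Against the 6 controls the log2 fold change was 1.09 (SE 0.436, adjusted p = 0.0797 in edgeR) and did not pass. Without KO 1 it was 1.40 with an adjusted p of 0.00438, and it also passed with DESeq2 (1.11, adjusted p = 0.0165), filterByExpr (1.11, adjusted p = 0.0465) and library size alone (1.3, adjusted p = 0.0412). The ratio of Cyp7b1 to Cyp27a1 was 0.256 in KO 1 and 1.21, 1.12 and 0.918 in the other KO livers, against 0.15 to 0.338 in the controls.

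In 2 other hydroxylases of sterols and bile acids KO 2 to KO 4 also lay above all controls and KO 1 did not. Cyp39a1, which hydroxylates 24-hydroxycholesterol, measured 19.4 CPM in KO 1, 86.9 to 95.7 CPM in KO 2 to KO 4 and 24.2 to 34.2 CPM in the controls. Cyp2c70, which makes the muricholic acids of mice, measured 330.4 CPM in KO 1, 762 to 854 CPM in the other KO livers and 249 to 616 CPM in the controls. KO 1 thus lay below all controls for Cyp39a1 and among them for Cyp2c70. These genes and Cyp7b1 were set side by side after their values were seen, and other hydroxylases of the same list differ: Cyp3a11 was 10096 CPM in KO 1, within the KO range, and KO 1 was the highest KO liver for Cyp46a1 and Cyp2a12. Cyp39a1 rose (log2 fold change 1.29, SE 0.357, adjusted p = 0.0186 in edgeR), a call lost without KO 2 (1.16, adjusted p = 0.0524) and without KO 4 (1.14, adjusted p = 0.0634). Cyp2c70 did not pass (0.71, SE 0.309, adjusted p = 0.0983 in edgeR) and passed in 5 of 18 alternatives, among them without KO 1 (0.94, adjusted p = 0.0184). KO 1 also had the fewest counts of the 10 libraries. Cyp7b1 is known as a male-biased gene of mouse liver, and a list of 15 male-biased liver genes summed to 5061 CPM in KO 1, 6727 to 8024 CPM in KO 2 to KO 4, 3933 to 5792 CPM in WT Cre and 7815 to 10917 CPM in MCS. Of the 15, 4 fell and 4 rose, whereas 13 of 15 female-biased genes rose and 0 fell. Their part in the Cyp7b1 values was not tested.

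Hsd3b7, which acts on the hydroxylated sterol ring in both pathways (ENSMUSG00000042289.11, chr7:127800604-127803802), fell with few reads behind it. It measured 6.17, 6.20 and 6.31 CPM in WT Cre, 7.90, 7.99 and 6.20 CPM in MCS, and 3.97, 3.20, 2.40 and 2.29 CPM in KO, from 111 to 194 counts in the controls and 57 to 81 counts in KO. All KO livers lay below all controls. The log2 fold change was -1.21 (SE 0.18, adjusted p = 0.000246 in edgeR). In the GENCODE M21 annotation 62% of its exonic bases are shared with another gene on the same strand and 62.4% with one on the opposite strand, so that 0.831% are free on both. The deposited FPKM of Hsd3b7 was 79.7 to 126 times the rate computed from its counts and exonic length, where this quotient was 0.784 to 1.3 for the other 9 enzymes. FPKM (fragments scaled to transcript length and library depth) gave 186 to 265 in the controls and 152, 124, 120.4 and 85.9 in KO, again without overlap. The direction was therefore the same in both tables, which come from the same libraries and are not independent. Which of the overlapping genes the reads came from cannot be told here, and the level of Hsd3b7 relative to other genes is uncertain. Without Hsd3b7 the median log2 fold change of the other 9 enzymes against the 6 controls was -0.54.

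Akr1d1, the 5-beta-reductase (ENSMUSG00000038641.12, chr6:37530173-37568815), measured 270.4, 248 and 267 CPM in WT Cre, 219, 216 and 251 CPM in MCS and 234, 224, 206 and 144 CPM in KO. KO 3 and KO 4 lay below all controls, KO 4 by far the more, and KO 1 and KO 2 lay among the MCS livers. The log2 fold change of -0.28 (SE 0.137, adjusted p = 0.127 in edgeR) did not pass.

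Of the enzymes that prepare the side chain in peroxisomes, Amacr fell and Acox2 did not pass. Amacr, the racemase that turns the side chain into the form the oxidases accept (ENSMUSG00000022244.7, chr15:10981756-10996626), measured 111, 118 and 107 CPM in WT Cre and 133, 123 and 130.1 CPM in MCS, against 107, 85.0, 82.8 and 56.4 CPM in KO. KO 1 lay level with the lowest WT Cre liver, and the other KO livers lay below all controls. For Amacr the log2 fold change was -0.54 (SE 0.148, adjusted p = 0.0122 in edgeR). Acox2, the branched-chain oxidase that follows it (ENSMUSG00000021751.13, chr14:8225511-8259353), measured 225, 223 and 222 CPM in WT Cre and 260.1, 270.0 and 285 CPM in MCS, against 275, 240.2, 207 and 171 CPM in KO. The KO livers spread on both sides of the WT Cre livers, and the log2 fold change of -0.15 (SE 0.137, adjusted p = 0.44 in edgeR) did not pass and changed sign with library size alone (0.03).

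Slc27a5, the bile acyl-CoA synthetase that activates bile acids for conjugation (ENSMUSG00000030382.15, chr7:12988346-12998192), had the largest fall of the 10 enzymes. It measured 1058, 988 and 967 CPM in WT Cre and 1026, 1111 and 1258 CPM in MCS, against 372, 278, 212 and 169 CPM in KO. No KO liver reached 35% of the control mean, with a range from 15.8% in KO 4 to 34.8% in KO 1. In edgeR the log2 fold change came to -2.05 (SE 0.199, adjusted p = 1.14e-05), a 4.15-fold lower level.

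Baat, the acyltransferase that joins the activated bile acid to taurine or glycine (ENSMUSG00000039653.9, chr4:49489422-49506557), was tight in the controls and spread in KO. It measured 322, 326 and 319.9 CPM in WT Cre and 299, 310.1 and 302 CPM in MCS, against 177, 62.7, 50.9 and 42.5 CPM in KO. KO 1 kept 56.6% of the control mean and the other KO livers 13.6% to 20%. The log2 fold change was -1.91 (SE 0.376, adjusted p = 0.003 in edgeR) and -2.59 without KO 1 (adjusted p = 2.65e-08). Both conjugation enzymes moved apart from Acox2 within the same livers: the ratio of Slc27a5 to Acox2 was 0.987 to 1.35 in KO and 3.94 to 4.70 in the controls, and the ratio of Baat to Acox2 was 0.246 to 0.644 in KO and 1.06 to 1.46 in the controls. The ratios are given as values, with no test. Because Acox2 differed little between the groups, they largely repeat the falls of Slc27a5 and Baat.

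**Figure D2:**
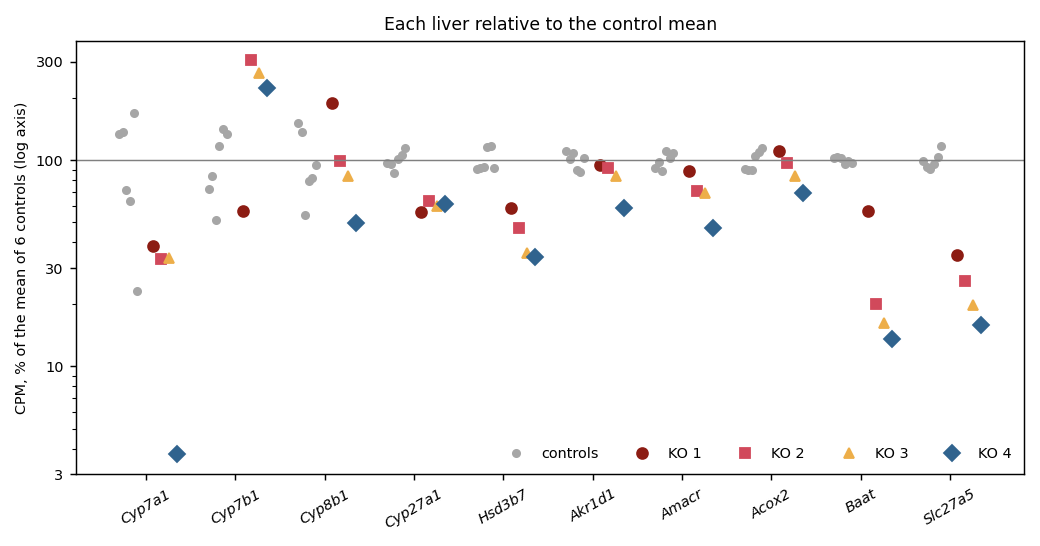
Each liver's CPM as a percentage of the mean of the 6 controls, on a log axis, for the 10 enzymes; grey points are controls and coloured symbols the 4 KO livers. KO 1 is the highest and KO 4 the lowest KO liver for 8 of the 10 enzymes, and for Cyp7b1 KO 1 lies at 56.8% while the others lie at 224% to 305%.

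The KO livers differed among themselves in the same way in most of the 10 enzymes, an order picked out after the values were seen. KO 1 was the highest and KO 4 the lowest KO liver for 8 of the 10 enzymes (all but Cyp7b1 and Cyp27a1), a pattern held by 17.4% of all tested genes and by 37.9% of the genes that fell. The summed level of the 10 enzymes was 2315, 2026, 1763 and 1383 CPM in KO, against 2667 to 3377 CPM in the controls. Not all lists described below followed this order. Summed transporters were lowest in KO 1 (2302 CPM), and summed regulators were highest in KO 4 (2442 CPM). The sums of other bile acid enzymes, taurine supply genes and peroxisome genes were highest in KO 1 and lowest in KO 4. The summed macrophage markers, 664, 1044, 1089 and 1440 CPM in the same KO livers, were lowest in KO 1 and highest in KO 4, and albumin was highest in KO 1 (75941 CPM) and lowest in KO 4 (61393 CPM). Their part in this spread was not tested.

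The levels of different enzymes can be set side by side only per length, for which the deposited FPKM was read. In the controls Slc27a5 was highest (383 ± 21.1 FPKM, SD, n = 6), followed by Hsd3b7 (222 ± 30.9) and Cyp27a1 (219.8 ± 8.64), then Cyp8b1 (168 ± 67.2), Baat (127 ± 13.4), Acox2 (77.6 ± 3.77), Akr1d1 (70.4 ± 9.80), Amacr (50.1 ± 3.14), Cyp7b1 (48.1 ± 14.5) and Cyp7a1 (16.2 ± 8.60). Neighbours whose ranges over the 6 livers overlapped were Hsd3b7 with Cyp27a1, Cyp27a1 with Cyp8b1, Cyp8b1 with Baat, Acox2 with Akr1d1 and Amacr with Cyp7b1. In KO, Slc27a5 (106 ± 31.9 FPKM, SD, n = 4) stood at place 5 and Baat (36.9 ± 27.5) at place 9, while Cyp7b1 (120.1 ± 62.0) stood at place 4, against place 9 in the controls. Cyp7b1 ran from 30.1 to 168 FPKM in KO, and in KO 1 alone it stood at place 9 and Baat at place 6. Of the 9 pairs of neighbours in KO, 7 overlapped over the 4 livers, the exceptions being Akr1d1 with Amacr and Baat with Cyp7a1. Cyp7a1 was last by FPKM in both groups (5.71 ± 3.64 FPKM in KO). Places turned when the counts per exonic kilobase were used instead. By that measure Hsd3b7 was last in both groups and Cyp7a1 at place 9, Cyp7b1 stood at place 7 in the controls and place 3 in KO, Slc27a5 at places 1 and 4, and Baat at places 4 and 7. The place of Hsd3b7 carries the limit on its level given above.

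**Figure D3:**
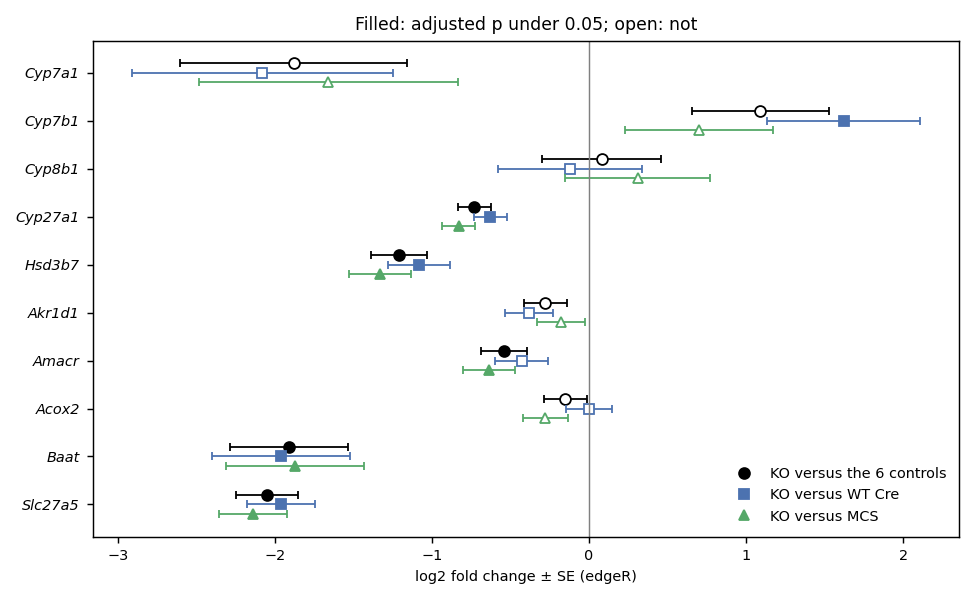
Log2 fold change ± SE (edgeR) of the 10 enzymes in KO against the 6 controls (circles), the WT Cre controls (squares) and the MCS controls (triangles); filled symbols have an adjusted p under 0.05. Slc27a5, Baat, Hsd3b7 and Cyp27a1 are filled and negative in all 3 comparisons, and Cyp7b1 is filled against WT Cre alone.

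KO shares the Cre virus with the WT Cre controls and the floxed alleles with the MCS controls, and it was compared with each. The 2 kinds of control differ from each other in genotype and in virus. No wildtype mice given the MCS vector were included, so the effects of Cre and of the floxed alleles cannot be told apart. The KO livers are the same in both comparisons, so these are not independent. Against WT Cre, which received the same virus, 4 enzymes fell, where 13.1% of all genes did: Slc27a5 (-1.96, SE 0.216, adjusted p = 8.40e-05), Baat (-1.96, SE 0.441, adjusted p = 0.0109), Hsd3b7 (-1.08, SE 0.198, adjusted p = 0.0019) and Cyp27a1 (-0.63, SE 0.105, adjusted p = 0.00107). Cyp7b1 rose (1.62, SE 0.486, adjusted p = 0.0367), beside 15.3% of all genes. That call was lost in 10 of the 18 alternatives, among them the removal of any 1 WT Cre liver or of KO 2, KO 3 or KO 4, with adjusted p up to 0.165. Amacr had a log2 fold change of -0.43 (adjusted p = 0.0696), Akr1d1 of -0.38 (adjusted p = 0.0841) and Cyp7a1 of -2.08 (adjusted p = 0.101), and none of these passed.

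Against MCS, the floxed mice without Cre, 5 enzymes fell and 0 rose, beside 14.8% and 17.3% of all genes. They were Slc27a5 (-2.14, SE 0.217, adjusted p = 4.16e-05), Baat (-1.87, SE 0.441, adjusted p = 0.0116), Hsd3b7 (-1.33, SE 0.198, adjusted p = 0.000429), Cyp27a1 (-0.83, SE 0.104, adjusted p = 0.000144) and Amacr (-0.64, SE 0.165, adjusted p = 0.0114), all by edgeR. The Amacr call was lost with library size alone (-0.40, adjusted p = 0.0625) and in limma on log2(FPKM + 1) (-0.39, adjusted p = 0.097). Cyp7b1 had a value of 0.70 (SE 0.47, adjusted p = 0.295), which passed without KO 1 (1.02, adjusted p = 0.000628), and Acox2, at -0.28 (adjusted p = 0.155), also passed without KO 1 (-0.40, adjusted p = 0.0161).

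Between WT Cre and MCS, 0 of the 10 enzymes passed in edgeR and 0 had an unadjusted p under 0.05, where 0.927% of all genes passed in edgeR. With DESeq2 0 of the 10 passed as well, beside 2.86% of all genes. Both fits took 1 estimate of spread per gene from all 3 groups, so a wide spread in KO raises the error here. For Baat the SD was 63.2 CPM in KO, 3.20 CPM in WT Cre and 5.73 CPM in MCS. The livers of the 2 kinds of control nevertheless did not overlap for 5 enzymes (Cyp7b1, Cyp27a1, Amacr and Acox2, higher in MCS, and Baat, higher in WT Cre), as was so for 22.2% of all genes. The widest difference was that of Cyp7b1 (-0.92, SE 0.5, adjusted p = 0.583), which passed when KO 1 was left out of the shared fit (-0.92, adjusted p = 0.0175).

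**Figure D4:**
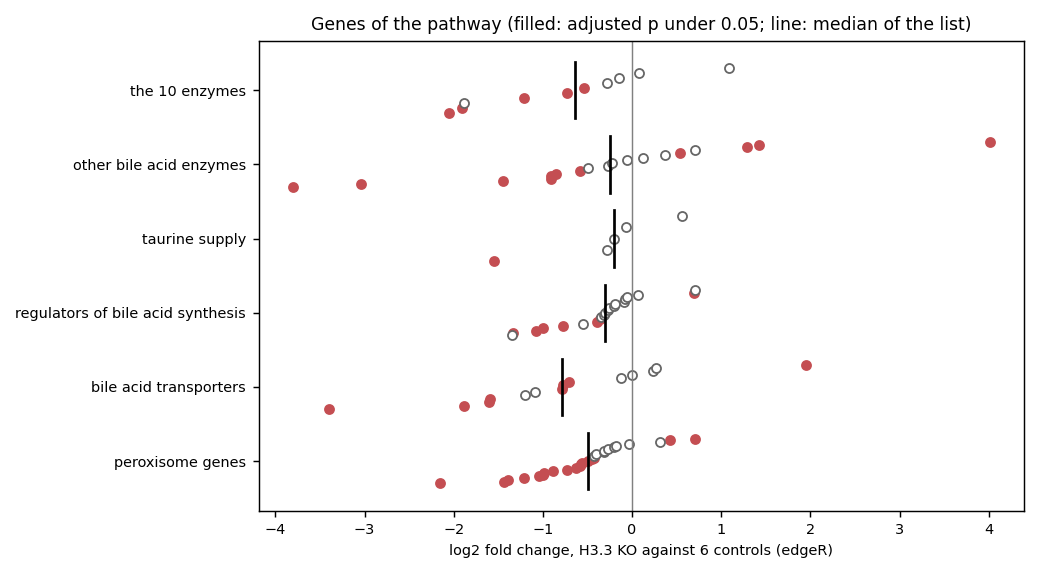
Log2 fold change in KO against the 6 controls (edgeR) for each tested gene of 6 lists; filled points have an adjusted p under 0.05 and the line is the median of the list. The median is -0.64 for the 10 enzymes, -0.78 for bile acid transporters and -0.5 for peroxisome genes, against -0.003 over all tested genes.

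Other enzymes of bile acid and oxysterol metabolism moved in both directions. Of 18, 7 fell and 4 rose, with a median log2 fold change of -0.25. Sult2a8, a sulfotransferase of bile acids, measured 308 to 809 CPM in the controls and 19.3, 76.2, 45.7 and 31.7 CPM in KO, without overlap (-3.80, SE 0.462, adjusted p = 0.000192). Akr1c6 measured 888 to 1286 CPM in the controls and 321 to 458 CPM in KO (-1.45, SE 0.153, adjusted p = 2.08e-05). Cyp46a1, the cholesterol 24-hydroxylase, fell from 3.13 to 6.00 CPM to 0.115 to 1.3 CPM (-3.04, SE 0.428, adjusted p = 0.00021), and Cyp2a12, which hydroxylates secondary bile acids in mice, had a value of -0.91 (SE 0.237, adjusted p = 0.0101). Cyp3a11 rose from 2813 to 4874 CPM to 9092 to 10825 CPM (1.42, SE 0.171, adjusted p = 5.22e-05), again without overlap. Ch25h, the cholesterol 25-hydroxylase, had 0 to 3 counts in the controls and 9, 22, 18 and 12 counts in KO. Por, the electron donor of microsomal P450 enzymes, also passed (0.54, adjusted p = 0.0297), but in 6 of 18 alternatives it did not.

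For taurine, the amino acid that mouse bile acids are joined to, 1 of 5 supply genes fell and 0 rose. This was Cdo1, which opens the route from cysteine to taurine, at 1557 to 2233 CPM in the controls and 832, 689, 562 and 486 CPM in KO (-1.55, SE 0.165, adjusted p = 2.22e-05 in edgeR).

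Among 21 measured regulators of bile acid synthesis 6 fell and 1 rose, with a median of -0.3. The receptors and corepressor of the feedback loop did not pass: Nr1h4 measured 100.2 to 161 CPM in the controls and 110.3 to 134 CPM in KO (-0.26, adjusted p = 0.157), Nr0b2 had a value of -0.31 (adjusted p = 0.622) and Fgfr4, the receptor of intestinal FGF15, of -0.30 (adjusted p = 0.153). Nr1h4 passed without MCS 3 (-0.34, adjusted p = 0.0137) and Fgfr4 without KO 1 (-0.50, adjusted p = 0.00544). Hnf4a (-0.55, adjusted p = 0.0763) passed without KO 4 (-0.84, adjusted p = 0.0048), and Nr5a2 (-0.20, adjusted p = 0.298) likewise (-0.38, adjusted p = 0.0224). Against MCS alone Hnf4a passed (-0.76, adjusted p = 0.0336 in edgeR), and against WT Cre alone it did not (-0.31, adjusted p = 0.371). Regulators that fell included Nr1i3, the receptor CAR (-1.34, adjusted p = 0.00237), Foxa2 (-1.08, adjusted p = 0.00235), Ppargc1a (-1.0, adjusted p = 0.000802) and Rxra, the partner of FXR (-0.78, adjusted p = 9.63e-05), while Prox1 rose (0.69, adjusted p = 0.0023), all by edgeR. Cyp7a1 follows the time of day, and among 17 clock genes 1 fell (Nfil3) and 2 rose (Ciart and Cry2). The hour of sampling is not given in the sources used here, and the part of the clock in the Cyp7a1 values was not tested.

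Of 14 bile acid and sterol transporters 7 fell, 1 rose and 6 did not pass. Abcb11 was among those that did not pass, at 680 to 941 CPM in the controls and 691 to 844 CPM in KO (adjusted p = 0.998 in edgeR). Slc51a, among the 7 that fell, was near the floor, at 0.447 to 0.754 CPM in the controls and 0 to 0.456 CPM in KO. Slc10a1, the sodium-dependent carrier that returns bile acids to the hepatocyte, measured 559 to 1016 CPM in the controls and 143, 267, 273 and 181 CPM in KO (-1.88, SE 0.225, adjusted p = 5.61e-05). Slco1b2, a second uptake carrier, had a value of -1.59 (adjusted p = 2.15e-05), and Abcc3, which exports conjugates to the blood, of -3.40 (adjusted p = 1.46e-07). Abcc4, an exporter to the blood, measured 9.98 to 16.1 CPM in WT Cre, 2.10 to 2.79 CPM in MCS and 19.2, 31.3, 37.1 and 36.1 CPM in KO, above all controls. It rose against the 6 controls (1.95, adjusted p = 0.0388), against WT Cre (1.18, adjusted p = 0.00302) and against MCS (3.72, adjusted p = 4.98e-06), and it was also higher in WT Cre than in MCS (2.53, adjusted p = 0.00117). The pooled call was lost in 9 of 18 alternatives, while its value ran from 1.57 to 2.44 over all of them.

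Peroxisome genes, whose products house the Amacr, Acox2 and Baat steps, fell in 16 of 27 and rose in 2. Decr2 (-2.15, adjusted p = 1.11e-05), Phyh (-1.44, adjusted p = 5.61e-05), Pex11a (-1.39, adjusted p = 0.000491) and Agxt (-1.21, adjusted p = 0.00373) fell most, and Pex26 rose (0.71, adjusted p = 3.95e-05), all by edgeR. These lists were chosen with earlier results of these data known, and the shares of all genes given above (16.6% lower, 19.7% higher) are their background.

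For the 3 enzymes that were DEGs in edgeR, the genes with the most similar profile over the 10 livers were sought. The search covered 9707 genes with a mean of 5 or more CPM. Likeness was the root mean square difference of log2 CPM after centring each gene. Slc27a5 lay closest to Suox (0.149) and Afm (0.161), Baat to D130020L05Rik (0.16) and Chpt1 (0.161), and Hsd3b7 to Eva1a (0.1) and Rpain (0.1). These values describe likeness across 10 livers that differ chiefly by group.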

How the data were processed

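Reads were trimmed and mapped to mm10 with STAR by the authors. For gene counts the study's methods name HOMER, while the submitters' processing notes name HTSeq and Cufflinks; strand and multi-mapping settings are not given in the sources used here. The deposited counts are whole numbers per gene without normalization. The deposited FPKM values were normalized by the authors to transcript length and depth, and their 268042 blank cells were read as 0.

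Genes with at least 10 counts over the 10 samples were tested with edgeR 4.0.16 (R 4.3.3; TMM normalization, robust quasi-likelihood F test, two-sided, Benjamini-Hochberg over all 22449 genes). KO was compared with the 6 controls in a fit of 2 groups and with each kind of control in a fit of 3 groups. Standard errors (SE) are in log2 units. DESeq2 1.42.0 and limma 3.58.1 served as alternatives, with RLE size factors, library size alone, no filter, filterByExpr, a replicate block and each liver left out. CPM are counts per TMM-scaled library size. The script was tested on simulated data with 200 changed genes. Coordinates and exons came from GENCODE M21.

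All 10 columns of each table were matched to samples, control columns through the numbers of the libraries. The 3 or 4 samples of a group are labelled as replicates, and the tests set group differences against the spread within groups. In edgeR that spread was estimated with information shared over genes, and in the fit of 3 groups it was pooled over all 3. Replicates of a group differed by more than counting error (chi-square over its degrees of freedom 11.5 to 109). Counts rest on PCR reads, and depth limits precision for genes such as Hsd3b7. The enzymes, the lists and the rule for named genes were chosen with earlier results of these data known. The rule names all 10 enzymes and at most 4 genes lower and 4 higher from each list by size of change. It also allows the feedback regulators, Cyp2c70, Slc10a1 and Abcb11 whatever their values.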

Additional observations from a re-analysis of the deposited data

Results flagged for a closer look

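In the 4 KO livers, 1 value stood apart from the others by Dixon's test in each of 2 enzymes. Cyp7a1 in KO 4 was 2.87 CPM, with a gap of 0.849 of the group's range to the next liver, and Baat in KO 1 was 177 CPM, with a gap of 0.85. The critical value for 4 livers is 0.829. Each of the 10 enzymes was examined in 2 groups, 20 in all, and chance gives about 1 in 20. Without KO 1 the log2 fold change of Baat moved from -1.91 to -2.59, and without KO 4 that of Cyp7a1 moved from -1.88 to -1.51 and did not pass.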

How the results depend on the processing

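The counts of enzymes that fell ran from 5 to 6 against the 6 controls, and from 4 to 6 against WT Cre and against MCS, over 18 alternatives, and Slc27a5, Baat, Hsd3b7 and Cyp27a1 passed in each of them in all 3 comparisons. The number that rose against the 6 controls went from 0 to 1 (Cyp7b1) with library size alone, DESeq2 and filterByExpr, and ran from 0 to 1 with 1 liver left out. Against WT Cre it went from 1 to 0 without a filter (Cyp7b1 1.62, adjusted p = 0.0864), in limma on log2(FPKM + 1) (1.47, adjusted p = 0.0672) and on log2(FPKM + 0.1) (1.49, adjusted p = 0.0681), and ran from 0 to 1 with 1 liver left out; against MCS it ran from 0 to 1, and between the controls the number lower ran from 0 to 1. The cause was not tested.

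Same-numbered livers deviated together with correlations from -0.167 to 0.212, so the numbers were not taken as pairs. With the replicate block, 0 enzymes rose against WT Cre (Cyp7b1 1.42, adjusted p = 0.165), and Cyp8b1 there was 0.129; the counts of enzymes lower were those without it, and over all genes 2768 were lower and 3543 higher than the controls. The block also took the call from Cyp39a1 (0.974, adjusted p = 0.121), Cyp2a12 (-0.795, adjusted p = 0.0547), Por and Abcc4 and gave it to Hnf4a (-0.827, adjusted p = 0.00599) and Nr5a2 (-0.376, adjusted p = 0.0396).

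Signs turned for values that did not pass: against the 6 controls Acox2 with library size alone (0.0303) and Cyp8b1 without WT Cre 3 (-0.0373) and KO 1 (-0.368); against WT Cre Cyp8b1 without WT Cre 1 (0.139), WT Cre 2 (0.0338) and KO 4 (0.119), and Acox2 without KO 1 (-0.114) and KO 2 (-0.0328); against MCS Akr1d1 with library size alone (0.0658) and on FPKM (0.0826 and 0.0835), and Cyp8b1 without KO 1 (-0.14); between the controls Amacr (0.0312 and 0.0318) and Slc27a5 (0.0245) on FPKM, and Cyp7a1 without MCS 3 (-0.029). With 1 liver left out these values ran up to 0.321 for Cyp8b1 against the 6 controls, from -0.564 to 0.139 for Cyp8b1 and up to 0.104 for Acox2 against WT Cre, up to 0.554 for Cyp8b1 against MCS, and up to 1.39 for Cyp7a1 between the controls.

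Over all genes, FPKM + 1 gave 2059 lower and 4738 higher than the 6 controls. Between the controls, 208 genes passed in edgeR and 334 lower and 309 higher with DESeq2. Over the 18 alternatives, genes lower ran from 6 to 9 among the other bile acid enzymes, 4 to 8 among regulators, 4 to 7 among transporters, 11 to 19 among peroxisome genes, 2 to 5 among male-biased genes and 2 to 6 among hepatocyte markers; genes higher ran from 0 to 2 among transporters, 1 to 3 among peroxisome genes, 1 to 4 among clock genes and 10 to 13 among female-biased genes. Depth limits Ch25h, Cyp46a1 and Hsd3b7, and the livers per group limit Cyp7a1, Cyp7b1 and Cyp8b1, whose spread within groups was wide.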
